A study of Mus musculus with 7 samples.

Results

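Elobl (elongin B-like) had the highest level of the entries listed for mouse oocytes at the germinal vesicle (GV) stage, among which there is no mitochondrial gene, and its level was followed from the GV stage to metaphase II (MII) with and without BYBX, a ligand of RNA G-quadruplexes (rG4s). The gene was chosen by its GV level, as the entry that ranked first in both GV libraries, so its GV values and every contrast with them are given as a description, without a test. It is 1 of the 25912 entries that each library lists, and its symbol occurs once in each of the 7 libraries. Each Smart-seq2 library was made from 10 oocytes of 4-week-old C57BL/6 females primed with pregnant mare serum gonadotropin, all labelled with a control genotype. Both MII groups were matured in culture. The study's results give 16 h in culture for MII in its spindle images, and its Smart-seq2 methods name no culture time. The GV group (2 libraries) is labelled as having received no treatment, the MII group (3 libraries) received the solvent DMSO, and the MII+BYBX group (2 libraries) received BYBX in DMSO. The study's methods, unlike the labels, say that control oocytes of both the GV and the MII stage received DMSO. The study also reports that fewer oocytes extruded a polar body as the BYBX concentration rose. By its account a small share of treated oocytes reached MII, and these had abnormal spindles. The Smart-seq2 methods do not say whether treated oocytes were sorted by stage, so MII+BYBX is used here as a label. The Smart-seq2 methods and the labels name no dose, and 1 μM is the dose of the comparison of translation efficiency in MII oocytes that these libraries entered. No source says that libraries of a group came from separate animals, so the spread between libraries behind the p-values below may be technical.

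Elongin B is a small protein with a ubiquitin-like fold that pairs with elongin C. The pair links substrate receptors to the scaffolds CUL2 and CUL5 in cullin-RING ubiquitin ligases, and together with elongin A it also forms a factor of RNA polymerase II elongation. Fully grown GV oocytes are transcriptionally silent and hold a store of maternal mRNA, much of which is deadenylated, translated or degraded between meiotic resumption and MII. Because reverse transcription started from oligo-dT primers, a level here is that of polyadenylated RNA, and shorter tails and fewer molecules cannot be told apart. Likewise, a library of pooled oocytes does not show whether a level fell alike in each oocyte or more in some of them.

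In the GENCODE vM21 annotation (GRCm38, called mm10 by UCSC), Elobl lies on the minus strand of chromosome 11 at chr11:88964658-88966931 and is annotated as protein coding (ENSMUSG00000057534.13). Its 819-base transcript has 2 exons, and a 704-base transcript has 3. The coding sequence of 486 bases (161 codons and a stop) sits whole in the last exon, chr11:88964658-88965273, behind a 5′ untranslated region of 241 bases in the longer transcript and before a 3′ untranslated region of 92 bases. Elob, the gene of elongin B itself, lies on chromosome 17, has 4 coding exons and codes for 118 residues. Over the 350 aligned coding positions the genes shared 265 bases (75.7%). The longest exact run that their transcripts have in common is 21 bases, against reads of 150 bases, which bears on how far reads of one could be counted for the other. The first 90 coding bases of both are shown to let the copies be told apart, with the 15 differing bases in capitals.
Elobl: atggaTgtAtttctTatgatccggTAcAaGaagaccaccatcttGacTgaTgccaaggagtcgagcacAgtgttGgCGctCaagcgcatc
Elob: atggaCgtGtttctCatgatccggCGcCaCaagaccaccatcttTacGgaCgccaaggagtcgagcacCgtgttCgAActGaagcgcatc

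The coding sequence of Elobl is 43 codons longer than that of Elob, and the addition is at its 3′ end. This end is built from similar units, and the longest exact repeat, 16 bases, occurs 2 times at a distance of 30 bases. The last 136 coding bases, the stop codon included, are shown because no base of Elob aligned with them, with TAATNAA, searched on the transcript strand, in capitals. It occurs 4 times in this stretch and 0 times in the coding sequence of Elob.
Elobl: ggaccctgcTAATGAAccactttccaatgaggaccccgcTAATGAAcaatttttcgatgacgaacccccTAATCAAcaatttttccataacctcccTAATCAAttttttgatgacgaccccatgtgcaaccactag

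Because BYBX binds rG4s and the libraries were primed on the poly(A) tail, the transcript was also searched, on its own strand, for G runs and for signals near its end. A stretch of 4 runs of G, each 3 or longer and separated by 1 to 7 bases, is not found in the 819-base transcript. Among 21832 protein-coding genes, 17.8% hold such a stretch in their longest transcript, and 3.4% of the 1222 whose transcript is 700 to 950 bases long. A looser motif, with runs of at least 2 G, is held by 91.3% of all genes and by 70.4% of those of similar length. The 704-base transcript, whose exons differ in this region, was not searched. The 819-base transcript has 1 stretch of the looser motif, of 24 bases in the 5′ untranslated region, shown with the G runs in capitals.
Elobl: GGtaGGGGccccaGGGacactaGG
Within the last 100 bases, Elobl holds the polyadenylation signal AATAAA, as do 61.6% of the genes, and holds neither TTTTAT nor TTTTAAT, of which at least one is found in 16.6%. The signal starts 31 bases from the annotated end and is shown in capitals within 30 bases around it, which stop short of that end. These matches are descriptions of the annotated sequence and were not tied to the levels below.
Elobl: gctgtcttttaaAATAAAtattaaataacc

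The authors gave each gene's level as fragments per kilobase of exon and per mapped depth (FPKM), scaled to an external RNA spike-in and, between batches, to GV samples. The number of reads per library is not given by these values, so the depth is unknown and no counting error can be attached to a level. The summed FPKM of a library was 402113 to 489569 in GV, 109732 to 127254 in MII and 201482 to 246710 in MII+BYBX, so the group mean was 27.0% of that of GV in MII and 50.3% in MII+BYBX. The labels do not say which library belongs to which batch. The 12 oocyte markers together reached 13403 to 16972 FPKM in GV, 1871 to 2124 FPKM in MII and 6291 to 7255 FPKM in MII+BYBX. The 12 markers of granulosa and cumulus cells summed to 9.12 to 18.0 FPKM, 1.95 to 2.32 FPKM and 3.58 to 3.69 FPKM in the same order, with 8 or 9, 11 and 10 of them under 1 FPKM per library and Ptx3 listed at 0 in each. The 6 erythrocyte markers summed to at most 1.13 FPKM in a library. The labelled cell type thus had its markers, and both summed lists moved in the same order of groups as Elobl did, and their part in the values below was not tested.

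Elobl stood at 5606 and 5654 FPKM in the GV libraries. It stood at 140.1, 178 and 266 FPKM in the MII libraries, and at 2721 and 1628 FPKM in the MII+BYBX libraries. The 3 groups did not overlap, in the order GV, MII+BYBX, MII, and the gap between neighbouring groups was wider than the range within either of them. As means, Elobl was at 5630.4 ± 33.9 FPKM in GV (SD, n = 2), 195 ± 64.6 FPKM in MII (SD, n = 3) and 2174 ± 773 FPKM in MII+BYBX (SD, n = 2). The MII level was thus 3.45% of that in GV, 28.9-fold lower, and single MII libraries lay at 2.49% to 4.72%. The MII+BYBX level was 38.6% of that in GV, with one library at 48.3% and the other at 28.9%. Of the decrease in FPKM seen from GV to control MII, 36.4% was missing in MII+BYBX, or 46.5% and 26.4% by library. On the scale of log2(FPKM + 1), MII minus GV was -4.90 and MII+BYBX minus GV was -1.42.

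**Figure D1:**
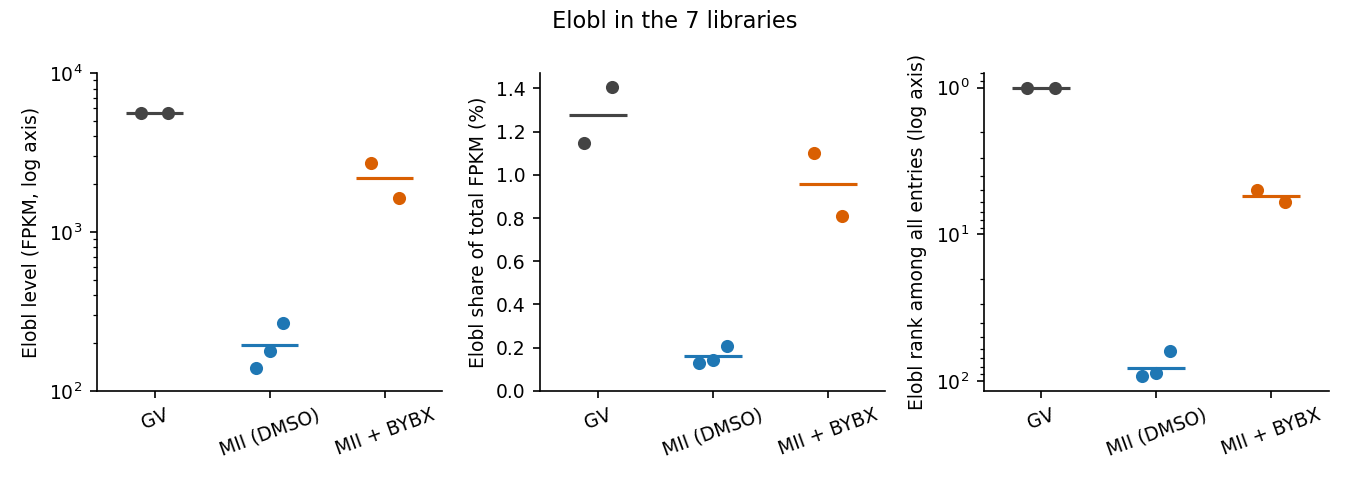
Elobl in each library (points) with the group mean (lines), as FPKM on a log axis, as percent of the library's summed FPKM on an axis from 0, and as rank by FPKM on a reversed log axis, rank 1 at the top. In each panel the MII+BYBX libraries lie between the GV libraries and the MII libraries.

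The comparison of the MII groups was not part of the rule that picked the gene and was tested. The gene was, however, chosen with earlier results of these data known. The stage that treated oocytes had reached is not given per library, so its part in this comparison was not tested. Elobl was 11.2-fold higher with BYBX than with DMSO in FPKM, and 3.48 ± 0.295 higher (SE) on the log2(FPKM + 1) scale (limma fit over 9202 entries, Benjamini-Hochberg adjusted p = 3.96e-07). This fit estimates the spread from all 3 groups, the GV libraries included. The GV libraries, by which the gene was picked, hardly differed in Elobl (SD 0.0087 on this scale, n = 2). The fit also moderates the spread of each gene over all entries tested. The residual SD of Elobl itself was 0.42, larger than the moderated spread behind the SE. The p-value is therefore not one from the spread of Elobl alone. A limma fit of the 2 MII groups alone gave the same difference with a larger adjusted p of 0.000103. Both BYBX libraries exceeded the highest of the 3 control libraries. The difference remained past the threshold of 0.05 under each of 15 alternative settings, at 2.2 to 3.85, with adjusted p-values from 7.58e-12 to 0.00145. The lowest came from fewer data, without MII replicate 1, and the highest without a filter on level. The adjusted p thus depended on the libraries and entries from which the spread was estimated. The size of the difference depended on how libraries were scaled. With every library brought to the same summed FPKM it was 2.59 (adjusted p = 2.02e-05), and with libraries centred on their median level it was 2.2 (adjusted p = 0.000252). The BYBX libraries differed 1.67-fold from each other in Elobl, and without the higher of them the difference was 3.11.

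Values that do not depend on the scale of a library gave the same order. Elobl made up 1.15% and 1.41% of the summed FPKM in the GV libraries, 0.128%, 0.144% and 0.209% in the MII libraries, and 1.10% and 0.808% in the MII+BYBX libraries. The share was therefore 7.97-fold lower in MII than in GV, and 1.34-fold lower in MII+BYBX than in GV. The GV and MII+BYBX shares did not overlap, but the gap between them was smaller than the range within either group. With BYBX the share was 5.97-fold that of control MII (0.955% ± 0.209 against 0.160% ± 0.0431, SD, n = 2 and n = 3; two-sided exact permutation p = 0.1, which is the smallest that 2 against 3 libraries allow). By rank, Elobl was first in both GV libraries, at places 93, 88 and 62 in the MII libraries and at places 5 and 6 in the MII+BYBX libraries (exact permutation p = 0.1). In the MII libraries its neighbours in rank were genes such as Btf3 and Pacrgl, Parp12 and Wtap, and Dpy30 and Obox1. In the first MII+BYBX library the genes next to it were H1f8 above and Bpgm below.

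The runner-up in both GV libraries was Bcl2l10, a BCL2 family member that oocytes express strongly, and the pair parted at MII. Bcl2l10 stood at 5037 and 4900.0 FPKM in GV, at 3411, 4779 and 5102 FPKM in MII and at 6022 and 3683 FPKM in MII+BYBX, and it was the top entry of each of the 5 MII libraries. In the fit it did not pass the threshold between the MII groups (log2 difference 0.11, adjusted p = 0.7). Scaling decides this call, because Bcl2l10 was lower with BYBX at the same summed FPKM (-0.79, adjusted p = 0.00721) and with median centring (-1.17, adjusted p = 0.00189). Within a library, which needs no scaling, Elobl was 1.11 and 1.15 times Bcl2l10 in GV, 0.0411, 0.0372 and 0.0521 times in MII and 0.452 and 0.442 times in MII+BYBX. The log2 of this ratio, with 1 FPKM added to both genes, was 3.37 higher with BYBX (exact permutation p = 0.1, the smallest possible). Bcl2l10 was taken for the ratio after its values had been seen.

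Among the 10 entries of highest mean FPKM in GV, Zp3 came closest to the course of Elobl. Zp3, which codes for a glycoprotein of the zona pellucida, was at 3124 and 2773 FPKM in GV, at 73.4, 59.3 and 106 FPKM in MII and at 1144 and 942 FPKM in MII+BYBX. It was at 2.70% of its GV level in MII and 35.4% in MII+BYBX, beside 3.45% and 38.6% for Elobl, and rose 13.1-fold with BYBX (log2 difference 3.73, adjusted p = 1.18e-07). Bcl2l10 and 3 others kept most of their GV level in control MII oocytes. Zbed3 was at 66.8%, Pttg1 (securin, the inhibitor of separase) at 79.1% and H1f8, the linker histone of oocytes, at 73.3%, and Bcl2l10 was at 89.2%. Their differences with BYBX, 0.11 to 0.31 on the log2 scale, did not pass the threshold. With median centring each of these genes was lower with BYBX, past the threshold. At the same summed FPKM this held for each but Zbed3 (-0.58, adjusted p = 0.0964). The growth factor gene Gdf9 was at 39.3% of its GV level in MII, and the F-box genes Fbxw28 and Fbxw14 were at 28.9% and 31.2%. These genes rose with BYBX by 0.63, 0.78 and 0.80 (adjusted p = 0.0252, 0.0068 and 0.00574), and fell with median centring (-0.65, -0.50 and -0.48). At the same summed FPKM their differences (-0.26, -0.11 and -0.095) did not pass the threshold. Fbxw28 and Fbxw14 belong to a family of similar copies, and reads shared by copies may have been left out, since FPKM came from uniquely mapped reads. The tenth entry, the ribosomal RNA precursor Rn45s, had a value of 0 in 3 MII or MII+BYBX libraries and 2125 and 1968 FPKM in the other two.

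**Figure D2:**
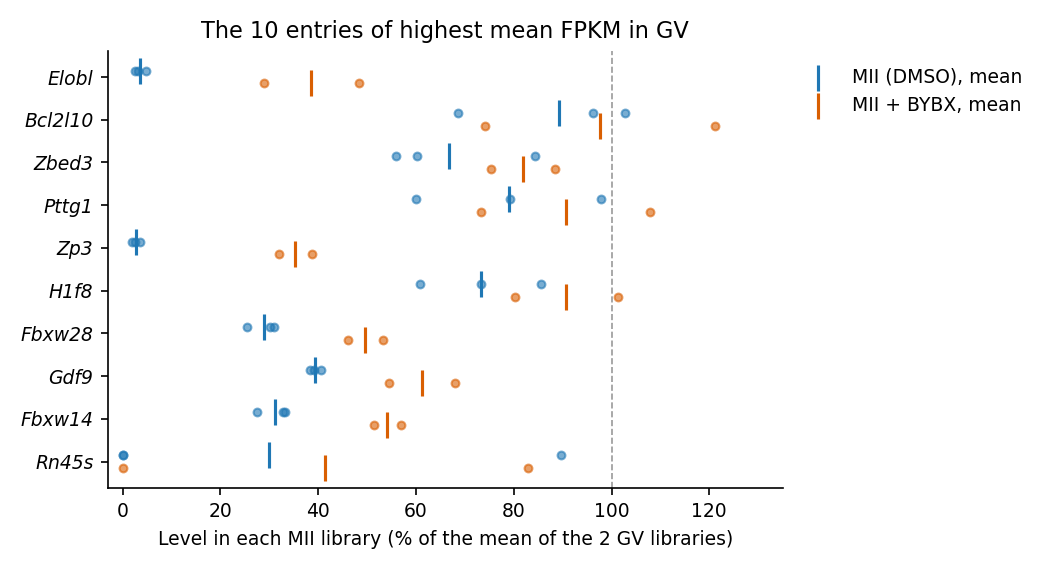
Level of the 10 entries of highest mean FPKM in GV, in each MII library (points) and as group mean (bars), in percent of the mean of the 2 GV libraries (dashed line at 100%). Elobl and Zp3 lie at 3.45% and 2.70% in MII and at 38.6% and 35.4% in MII+BYBX, while Bcl2l10, Pttg1 and H1f8 have overlapping groups.

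Elobl was not the entry that fell furthest. Among the 51 entries with at least 1000 FPKM on average in GV, the median was 16.5% of the GV level in MII and 46.0% in MII+BYBX. Of these entries, 10 were at a lower percentage than Elobl in MII and 17 in MII+BYBX. Over the 9202 entries tested, those with a mean of the 3 group means of at least 1 FPKM, the median difference between BYBX and control MII was 0.84 on the log2(FPKM + 1) scale. Elobl, at 3.48, exceeded 97.4% of the other entries, and 237 entries lay above it. Among the 51 abundant entries the median was 1.68 and 9 lay above Elobl.

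**Figure D3:**
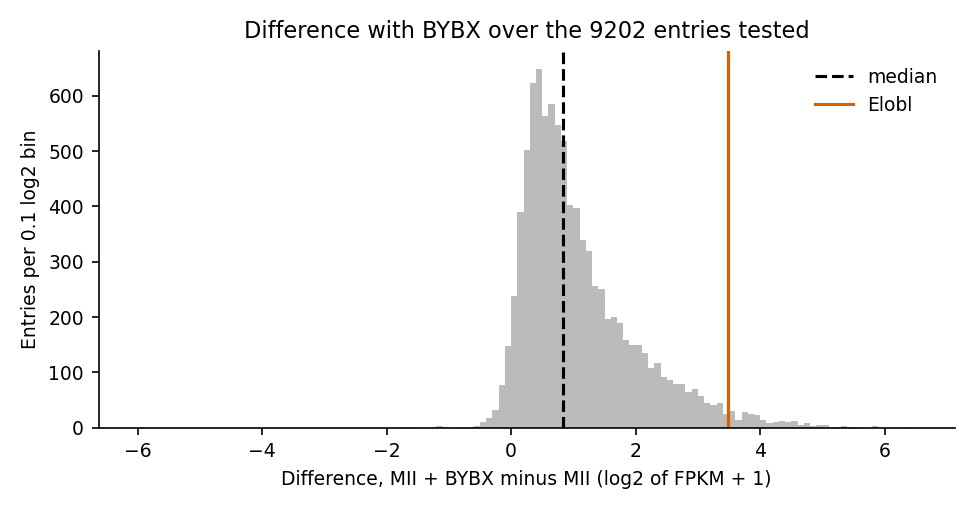
Number of entries by their difference between MII+BYBX and MII on the log2(FPKM + 1) scale, over the 9202 entries tested. The dashed line is the median, 0.84, and the solid line is Elobl, 3.48, in the upper tail.

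The other elongin genes moved in the same directions on the authors' scale. Eloc (elongin C) was at 1043 and 1052 FPKM in GV, at 24.98, 27.7 and 44.5 FPKM in MII and at 283 and 263 FPKM in MII+BYBX. Elob itself was far scarcer, at 38.9 and 47.1 FPKM in GV, at 0.579, 1.19 and 2.85 FPKM in MII and at 27.3 and 14.9 FPKM in MII+BYBX. In FPKM, which is a level per length, Elobl was 144 and 120.0 times Elob in the GV libraries, and elongin B-like transcripts outnumbered those of elongin B in each of the 7 libraries. Eloa (elongin A) was at 17.8 and 9.93 FPKM in GV, at 2.51, 1.62 and 2.25 FPKM in MII and at 4.27 and 9.05 FPKM in MII+BYBX. For these 3 genes the libraries of the MII groups did not overlap. In the fit over all entries Elob rose with BYBX by 3.16 (adjusted p = 4.67e-06), Eloc by 3.08 (adjusted p = 6.25e-07) and Eloa by 1.23 (adjusted p = 0.00357). Elob and Eloc stayed past the threshold under both other scalings, whereas Eloa did not (0.58 at the same summed FPKM, adjusted p = 0.195, and -0.05 with median centring, adjusted p = 0.905).

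**Figure D4:**
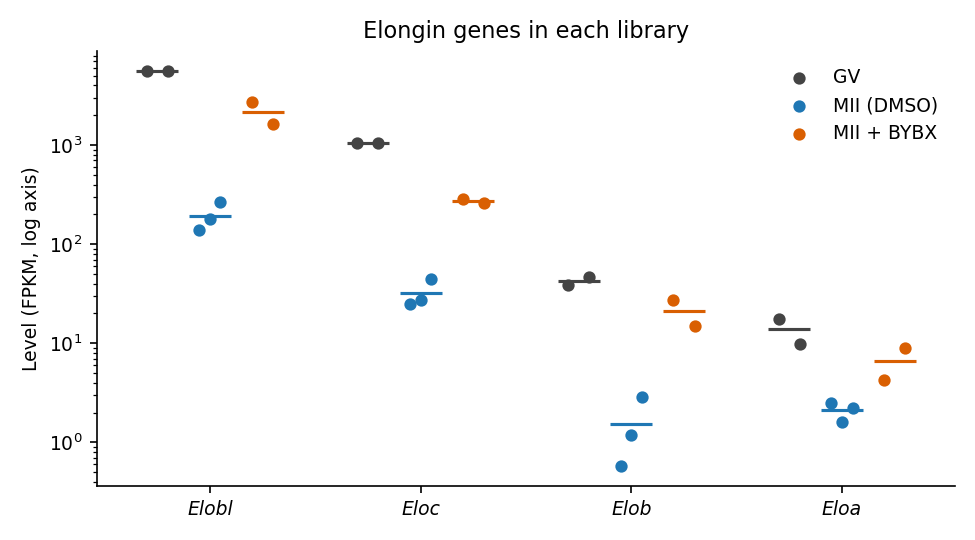
Level of Elobl, Eloc, Elob and Eloa in each library (points) with the group mean (lines), in FPKM on a log axis, coloured by group. Elobl lies highest of the 4 in each group, and for each gene the order of the group means is GV, MII+BYBX, MII.

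Ratios within a library set Elobl against each of the other elongin genes. The ratio of Elobl to Eloc within a library was 5.38 and 5.37 in GV, 5.61, 6.42 and 5.97 in MII and 9.62 and 6.18 in MII+BYBX, with overlap between the MII groups (exact permutation p = 0.2). The log2 ratio of Elobl to Elob, with 1 FPKM added to both, was 7.01 ± 0.18 in GV (SD, n = 2), 6.32 ± 0.19 in MII (SD, n = 3) and 6.63 ± 0.07 in MII+BYBX (SD, n = 2). The MII groups did not overlap on this scale, but their difference of 0.32 had an exact permutation p of 0.2, and its sign turned with 0.1 FPKM added (-0.40), since Elob in MII lies near the value added. The ratio of Elobl to Eloa was 315 and 569 in GV, 55.9, 109.8 and 118 in MII and 638 and 179.8 in MII+BYBX, without overlap between the MII groups (exact permutation p = 0.1, the smallest the design can give), and was added after the values had been seen. Adjusted over the 6 permutation tests given here, p was 0.15 for the share, the rank and the ratios to Bcl2l10 and Eloa, and 0.2 for the ratios to Eloc and Elob.

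The cullin-RING genes around the elongin pair were described from lists of the ligase core, of receptors that use CUL2 and of receptors that use CUL5. With the 3 elongin genes they hold 71 genes, of which 44 passed the filter and were tested. Between the MII groups 27 of the 44 (61.4%) were called higher with BYBX in the limma fit and 0 lower, the lowest difference being 0.12, beside 65.2% called higher among all 9202 entries, so the share was near the background. From GV to MII, 40 of the 44 (90.9%) were called lower, beside 88.3% of all entries, and from GV to MII+BYBX 30 of 44 (68.2%), beside 69.2%. A gene could pass the filter through GV alone, where it was high, so nothing is read from these counts of falls. The median difference with BYBX was 0.85 over the 44 genes and 0.84 over all entries. These counts rest on the authors' scaling, since at the same summed FPKM 17 were called higher and 4 lower with BYBX, and with median centring 4 higher and 19 lower.

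In the ligase core, 11 of 16 tested genes (68.8%, of 18 listed) were called higher with BYBX, beside 65.2% of all entries. Ube2f, a NEDD8-conjugating enzyme that acts on CUL5, rose by 1.77, from 0.172 FPKM ± 0.0497 in MII (SD, n = 3) to 2.98 ± 0.131 FPKM (SD, n = 2), and remained higher under both other scalings. Nedd8, the ubiquitin-like modifier of cullins, rose by 1.74, and Rnf7, the RING subunit that pairs with CUL5, by 1.46. Rbx1, the RING subunit of CUL2 ligases, rose by 1.35, and the scaffolds Cul2 and Cul5 rose by 0.67 and 0.65. At the same summed FPKM Rbx1 remained higher (0.85), while Nedd8 (0.87), Rnf7 (0.72), Cul2 (0.21) and Cul5 (-0.10) did not pass the threshold. With median centring Nedd8, Rnf7 and Rbx1 did not pass it and Cul2 and Cul5 were lower (-0.60 and -0.63). Of these genes, Nedd8 was the most abundant in GV, at 275 ± 21.8 FPKM (SD, n = 2), and Cul2 was at 5.001 ± 2.44 FPKM (SD, n = 2).

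Among receptors that use CUL2, 7 of 9 tested genes (77.8%, of 13 listed) were called higher with BYBX, beside 65.2% of all entries. Klhdc3 rose by 1.63, Appbp2 by 1.602 and Fem1b by 1.44, but none of the 3 passed with median centring (0.36, 0.32 and 0.17). Vhl, the receptor for hydroxylated hypoxia-inducible factors, was below the filter, at 1.81 and 1.19 FPKM in GV, 0.0959, 0.186 and 0.0366 FPKM in MII and 0.357 and 1.47 FPKM in MII+BYBX. Among receptors that use CUL5, 6 of 16 tested genes (37.5%, of 37 listed) were called higher, beside the same 65.2%. Asb8, an ankyrin repeat and SOCS box receptor, rose most, by 4.38. It stood at 155 and 106 FPKM in GV, at 0.548, 0.834 and 0.759 FPKM in MII and at 33.7 and 35.6 FPKM in MII+BYBX, and it remained higher under both other scalings. Socs3, a feedback inhibitor of cytokine signalling, rose by 1.69 and Spsb3 by 1.37, with 0.41 and 0.09, not past the threshold, under median centring.

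The entries most like Elobl were found from the root mean square difference of log2(FPKM + 1) values over the 7 libraries, each gene centred on the mean of its group means. Nr2c2ap was nearest, with a difference of 0.129. It stood at 123 and 113 FPKM in GV, at 1.84, 2.53 and 4.96 FPKM in MII and at 49.1 and 26.7 FPKM in MII+BYBX. Mien1 (0.133), A430005L14Rik (0.145), Atf4, a stress-responsive transcription factor (0.146), and Calr, a calcium-binding chaperone of the endoplasmic reticulum (0.162), followed. In MII these 5 genes were at 1.33% to 3.32% of their GV level, and in MII+BYBX at 31.9% to 36.4%. The order depends on the measure, since 2 of the 10 nearest entries were also among the 10 nearest by Pearson's r, and 3 of 10 after scaling to the same summed FPKM.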

How the data were processed

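The 7 Smart-seq2 libraries were grouped by their labels. The authors trimmed reads with Trim Galore 0.6.7, aligned them to mm10 with HISAT2 2.2.1, and computed FPKM from uniquely mapped reads with Cufflinks 2.2.1 on UCSC gene models. The deposited FPKM values had been scaled by the authors to ERCC spike-in RNA (100 pg per library) and, between batches, to GV samples. The factors are not given in the sources used here, and no ERCC entry is listed, so the scaling could not be redone. Of 25912 entries, 4 with a missing value were left out.

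Levels were analysed as log2(FPKM + 1) with limma 3.58.1 in R 4.3.3 (lmFit, eBayes with an intensity trend) for the 9202 entries that averaged 1 FPKM or more over the group means, in a model of 3 group means with 4 residual degrees of freedom and Benjamini-Hochberg adjustment. Single values were compared by two-sided exact permutation tests over libraries (scipy 1.17.1). The limma step was tested on simulated data. Named genes were Elobl, the elongin genes, the 10 entries highest in GV, the 5 most like Elobl, the 3 largest rises and falls called per list, and Vhl, Cul2, Cul5, Rbx1 and Rnf7. No list member was called lower with BYBX. Genes beside Elobl in rank were named by place. The gene and the lists were chosen with earlier results of these data known. Sequences are from GENCODE vM21 transcripts, coding sequences were aligned globally with free end gaps, and motif shares are over the longest transcript per protein-coding gene. Alternatives were a pseudocount of 0.1, a filter at 5 FPKM or none, the same total FPKM, median centring, no trend, a fit of the 2 groups compared, a replicate block and leaving out each library.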

Additional observations from a re-analysis of the deposited data

How the results depend on the processing

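Each value here is a setting's value beside that reported. MII minus GV for Elobl (log2, -4.90) was -3.02 at the same total FPKM and -2.60 with median centring, and MII+BYBX minus GV (-1.42) was -0.43 and -0.39. Both settings replace the authors' scaling between libraries. The log2 ratio of Elobl to Elob reversed to -0.40 with a pseudocount of 0.1. Of the 10 entries most like Elobl, 2 were shared with the order by Pearson correlation and 3 at the same total FPKM.

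Of the 44 tested elongin and cullin genes, the calls at the same total FPKM and with median centring were, between BYBX and MII, 17 and 4 higher (27 reported) and 4 and 19 lower (0 reported), between MII and GV, 12 and 20 higher (0) and 19 and 8 lower (40), and between MII+BYBX and GV, 2 and 4 higher (0) and 4 and 3 lower (30). Of the 13 RNA polymerase II elongation genes, the calls between BYBX and MII were 3 and 3 higher (9) and 1 and 6 lower (0).

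Over all entries, calls between BYBX and MII (6000 higher, 3 lower) were 3686 higher with a filter at 5 FPKM, which tests fewer entries, 3672 higher and 756 lower with totals made equal, and 1696 higher and 4040 lower with median centring. Between MII and GV (25 higher, 8127 lower) they were 10 and 4842, 2141 and 4557, and 4494 and 2456 in the same order of settings. Between MII+BYBX and GV (29 higher, 6370 lower) they were 15 and 3779, 488 and 1222, and 1397 and 1250, with 58 higher without a filter. Leaving out 1 library at a time gave 3 to 15 lower between BYBX and MII (15 and 6 without the first and second MII library, 7 and 11 without the first and second BYBX library), 9 to 52 higher between MII and GV (9 without the second GV library, 52 without MII replicate 1 and 14 without MII replicate 3) and 13 to 93 higher between MII+BYBX and GV (13 without the second GV library, 44 without the first MII library, 93 without the second BYBX library).

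With the replicate number as a block, the difference of Elobl between BYBX and MII was 3.73 (adjusted p = 7.31e-07), 5266 entries were called higher, and those higher in MII than in GV numbered 14 (25 without the block). Whether the numbers pair libraries is not known. Deviations of same-numbered libraries from their group means correlated at -0.60 and -0.35 between BYBX and MII, and at 0.49 and 0.28 between MII and GV. They correlated at -0.33 for both numbers between MII+BYBX and GV, where 2 libraries a group force equal values. With so few libraries, deviations within a group depend on each other, so these correlations cannot decide the pairing.

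Leaving out 1 library at a time left the difference of Elobl with BYBX at 3.11 to 3.85. Groups of 2 or 3 libraries limit the precision, and what the depth adds is unknown.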

Other observations

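Since elongin B and C are also subunits of a factor that speeds transcription, 16 genes of RNA polymerase II elongation were read from the same fit, of which 13 passed the filter. With BYBX, 9 of the 13 (69.2%) were called higher than in control MII oocytes and 0 lower, the lowest difference being 0.14, beside 65.2% higher among all entries. Supt4a, a subunit of the DSIF elongation factor, rose with BYBX by 2.88 on the log2(FPKM + 1) scale (limma adjusted p = 1.8e-07). It stood at 38.9 and 39.2 FPKM in GV, at 0.472, 0.646 and 0.548 FPKM in MII and at 11.4 and 9.59 FPKM in MII+BYBX. Tcea3, of the TFIIS family, rose by 2.67 and Ell3, of the ELL family, by 2.28, and these 3 genes remained higher at the same total FPKM and with median centring.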
